A study of Rattus norvegicus with 8 samples.

Results

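The genes described here encode the nuclear part of the mitochondrial respiratory chain and of the ATP synthase. They were chosen by symbol alone: the Nduf subunits and assembly factors of complex I, Sdha to Sdhd of complex II, the Uqcr genes and Cyc1 of complex III, Cycs for cytochrome c, Cox4 to Cox8 subunits of complex IV, and the Atp5f, Atp5m, Atp5p and Atp5if1 genes of the ATP synthase. Pseudogene symbols ending in -ps (3 in the adipocyte table) and placeholder symbols were left out. The rule found 82 genes of the 18513 listed in either deposited table. Of these, 78 were among the 14295 genes of the precursor table and all 82 were among the 18236 genes of the adipocyte table. Cox6a2, Cox7a1, Ndufa10l1 and Ndufs6 were listed in adipocytes only.

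Electrons from NADH enter the chain at complex I and those from succinate at complex II. Both pass them through ubiquinone to complex III, cytochrome c carries them on to complex IV, which reduces oxygen, and the proton gradient built on the way drives the ATP synthase. Most subunits are encoded in the nucleus and have to be made in step with the few that are encoded by mitochondrial DNA. Some positions in complex IV can be filled by alternative subunits: Cox4i2 takes the place of Cox4i1 and is known for a role in cells short of oxygen, and Ndufa4l2, a relative of the complex IV subunit Ndufa4, is known as a gene induced by hypoxia. White adipocytes use the chain to support lipid synthesis, and their mitochondrial content rises as precursors differentiate.

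The libraries came from wild-type Wistar rats kept for 6 months on control food (C) or on food rich in fat and sucrose (HFS). Cells labelled as mesenchymal stem cells (adipose-derived stem cells, ASC, called precursors here) were taken from inguinal fat with collagenase and cultured. Some were turned into adipocytes (AD) by 3 days of insulin at 10.0 µg/mL with dexamethasone at 5.0 µM and the phosphodiesterase inhibitor IBMX at 0.5 mM, then 7 days of insulin at 10.0 µg/mL. The 4 groups, ASC_C, ASC_HFS, AD_C and AD_HFS, had 2 libraries each, and the precursors of both diets were kept in the same medium. The labels give the AD libraries the cell type of the precursors, so their stage was taken from their titles. Whether replicate libraries stem from different rats or dishes is not in the labels, nor are age and sex, so each p measures only the spread between these samples, which may be technical.

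The ASC libraries held 3339269 and 7290961 reads in C and 5851960 and 992618 in HFS, and the AD libraries held between 76083827 and 119555051. In the shallowest library, ASC_HFS replicate 2, 3 reads were worth 10.9 normalized counts. Adipocyte markers took 0.174% to 0.400% of the reads in the ASC libraries and 1.66% to 2.03% in the AD libraries, and mesenchymal progenitor markers took 1.66% to 2.91% and 0.654% to 1.15% respectively. None of the 8 adipocyte or 7 progenitor markers measured was at 0 reads in any library. The 2 AD_HFS libraries resembled each other more closely than other pairs did: 30.1% of genes differed by more than the 5% point of counting noise, against 35.8% in ASC_HFS, 76.1% in AD_C and a share between these in ASC_C. Every pair thus differed by more than counting noise and was kept as 2 libraries.

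Promoters of 5 of the genes are shown. Ndufa11 and Atp5pf had the smallest p among genes called lower in precursors with the NRF1 or the YY1 letters before the start. Cycs and the NDUFA4 pair, whose members had unlike differences, were picked by name. Each is the 250 bases before the annotated start (RefSeq, rat assembly GRCr8), written 5′ to 3′ on the strand of the gene. Capitals mark letters of the motifs searched, on either strand: GCGCATGC of nuclear respiratory factor 1 (NRF1), CCGGAAG of ETS factors such as GABPA, AAGATGGCG of YY1, TCAAGGTCA of estrogen-related receptors, GGGCGGGG of SP factors, and ACGTG or GCGTG, the core bound by hypoxia-inducible factors.
Ndufa11 (chr9:1637364-1637613, plus strand): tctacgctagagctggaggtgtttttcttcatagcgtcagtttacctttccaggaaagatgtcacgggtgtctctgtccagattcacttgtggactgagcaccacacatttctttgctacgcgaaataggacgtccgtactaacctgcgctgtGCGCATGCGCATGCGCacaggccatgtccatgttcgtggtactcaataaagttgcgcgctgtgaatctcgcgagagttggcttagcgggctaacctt
Atp5pf (chr11:37375102-37375351, minus strand): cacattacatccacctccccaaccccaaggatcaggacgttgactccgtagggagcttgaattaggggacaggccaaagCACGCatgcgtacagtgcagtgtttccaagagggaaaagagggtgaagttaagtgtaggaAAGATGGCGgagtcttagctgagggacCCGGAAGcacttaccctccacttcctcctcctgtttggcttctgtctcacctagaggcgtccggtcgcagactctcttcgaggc
Cycs (chr4:80984768-80985017, minus strand): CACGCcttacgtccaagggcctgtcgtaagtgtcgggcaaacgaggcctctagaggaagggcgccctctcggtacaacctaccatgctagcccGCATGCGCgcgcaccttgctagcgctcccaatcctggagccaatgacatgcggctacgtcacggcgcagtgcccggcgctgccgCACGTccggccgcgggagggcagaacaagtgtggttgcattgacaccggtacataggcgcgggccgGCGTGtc
Ndufa4 (chr4:40975560-40975809, minus strand): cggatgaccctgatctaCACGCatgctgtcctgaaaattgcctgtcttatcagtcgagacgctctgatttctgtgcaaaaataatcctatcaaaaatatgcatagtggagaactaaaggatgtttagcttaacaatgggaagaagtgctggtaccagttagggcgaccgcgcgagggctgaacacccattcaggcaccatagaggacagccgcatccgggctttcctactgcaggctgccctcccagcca
Ndufa4l2 (chr7:65241919-65242168, plus strand): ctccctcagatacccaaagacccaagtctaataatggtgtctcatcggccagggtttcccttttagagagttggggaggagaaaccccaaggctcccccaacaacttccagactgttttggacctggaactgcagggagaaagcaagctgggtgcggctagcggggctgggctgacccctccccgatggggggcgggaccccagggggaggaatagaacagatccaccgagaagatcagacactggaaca
In the Ndufa11 promoter the NRF1 letters occur 4 times in overlapping copies on both strands, beginning 97, 95, 91 and 89 bases before the start. The Cycs promoter holds the NRF1 letters once, 157 bases before the start on the opposite strand. The Atp5pf promoter holds the YY1 letters at 111 bases and the ETS letters at 84 bases before the start. The printed Ndufa4l2 stretch holds none of the motifs searched.

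RefSeq windows of 300 bases, from 250 before to 50 after the start, were matched for 72 of the 82 genes and compared with those of all 27457 genes with a window. The NRF1 letters were found in 15.3% of the 72 windows and in 2.66% of all windows. Among the 26 windows of genes called lower in precursors they were found in 15.4%, a share like that of the set. The YY1 letters were found in 13.9% and 1.93% and the ETS letters in 26.4% and 9.22%. The estrogen-related receptor letters were found in 2.78% (2 of the 72 windows) and 0.412%. The shorter NRF1 core TGCGCA, part of which overlaps the longer motif, was found in 26.4% and 7.68%. The SP letters were present in 12.5% of the windows of the set and in 16.3% of all windows. Either hypoxia core was found in 59.7% and 42.9%, in a search added after the expression values had been seen. Among the 26 windows of genes called lower, either core was found in 50% and the estrogen-related receptor letters in 0%. The YY1, ETS, TGCGCA and SP letters were found there in 23.1%, 26.9%, 34.6% and 3.85%. The median GC content was 56.7% in the set and 52.3% in all windows, which bears on how often GC-rich letters occur. These counts describe letters in a window and are no measure of binding. Among the genes not matched were Atp5pd, Cox4i2, Cox6a1, Cox6c, Cyc1, Ndufa10l1, Ndufa8, Ndufaf6 and Uqcrb.

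The first comparison was between the diets in precursors. In ASC_HFS, 30 of the 78 genes were lower and 0 were higher (limma-trend, p under 0.05 after Benjamini-Hochberg adjustment over the whole table). Over all 14295 genes, 9.7% were called lower and 9.41% higher. Without any 1 of the 4 libraries limma-trend called 0 of the set lower (all genes 0%), and limma-voom on reads thinned to the shallowest library called 11 (all genes 3.66%). The difference was below 0 for 75 of the 78 genes. The median log2 difference was -0.75 for the set and -0.04 for all genes, and the median ratio of normalized counts, HFS over C, was 0.496 and 0.944. Both HFS libraries lay below both C libraries for 67 genes (all genes 32.5%), both lay above for 1 gene (all genes 28.5%), and the groups overlapped for 10. At an unadjusted p under 0.05 there were 53 genes (all genes 33.3%). In bulk RNA, fewer cells with a high level and less RNA per cell cannot be told apart.

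The set took 1.24% and 1.27% of all reads in ASC_C and 0.714% and 0.532% in ASC_HFS. The mean share was thus 1.25 ± 0.0237% with C and 0.623 ± 0.129% with HFS (SD, n = 2). The groups did not overlap, and within ASC_HFS the shallower library was the lower. With 2 libraries against 2 the smallest two-sided exact permutation p is 0.33, so no test of a share was made.

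**Figure D1:**
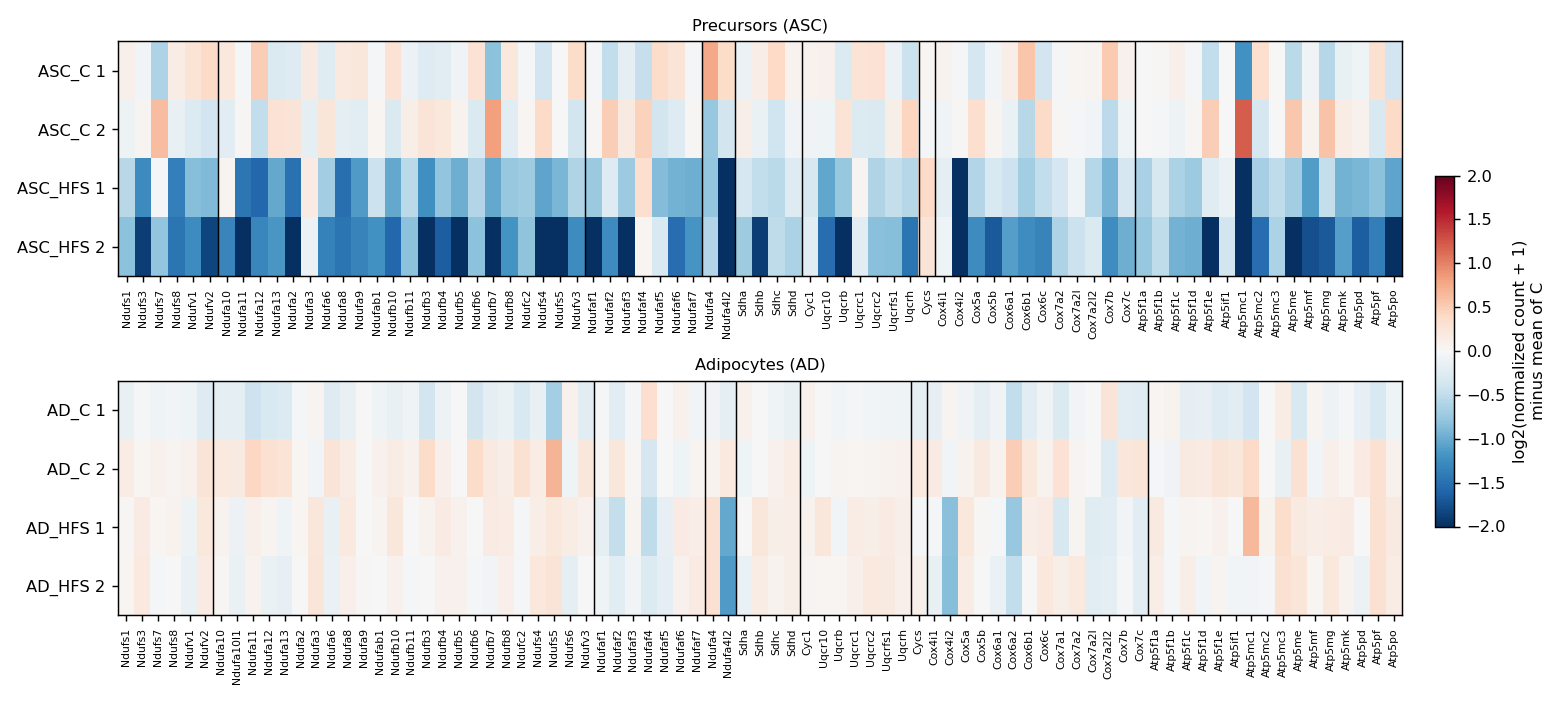
Heat maps of each gene but 1 (columns, grouped by complex between the black lines) in each library (rows), as log2(normalized count + 1) minus the mean of the 2 C libraries of its table, with the colour scale held at -2 to 2. In the precursors most columns are blue in both HFS rows, more so in HFS replicate 2, while in the adipocytes Cox4i2, Ndufa4l2 and, less evenly, Cox6a2 are the bluest columns in the HFS rows.

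Complex I held most of the lower genes. Of its 7 core subunits, the ones that carry the flavin, the iron-sulfur clusters and the ubiquinone site, 4 were lower in ASC_HFS (all genes 9.7%). Ndufs3 (ENSRNOG00000009155), a core subunit of the peripheral arm, was at 324 and 349 normalized counts in C and at 138 and 90.7 in HFS. That is 2.95-fold lower (log2 difference -1.20 ± 0.25 SE, adjusted p = 0.0050, limma-trend), with no overlap. Ndufs8, which holds iron-sulfur clusters near the ubiquinone site, was at 257 and 207 in C and 89.2 and 83.4 in HFS, or 2.69-fold lower (limma-trend adjusted p = 0.0097). Ndufv2 was at 257 and 152 against 107 and 54.4, and Ndufv1, which binds NADH and the flavin, was at 717 and 491 against 329 and 247. These 2 were 2.53-fold and 2.10-fold lower (limma-trend adjusted p = 0.030 and 0.034). Ndufs1 and Ndufs7 were not called (ratios 0.619 and 0.709), and Ndufs7 overlapped between the diets.

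Among the 22 accessory subunits of complex I measured in precursors, 14 were lower, 8 did not pass and none was higher (all genes 9.7% lower and 9.41% higher). Accessory subunits surround the core and are needed for its assembly and stability. Ndufa2 was at 409 and 581 in C and 173 and 112 in HFS, 3.47-fold lower (log2 difference -1.44 ± 0.27 SE, limma-trend adjusted p = 0.0029). Ndufa11, whose promoter holds the overlapping NRF1 letters, was at 371 and 386 against 139 and 94.3, 3.25-fold lower (adjusted p = 0.0030). Ndufa8 was at 346 and 265 against 105 and 109, and Ndufb5, a membrane-arm subunit, at 321 and 351 against 169 and 65.3. The 14 genes ranged from 1.96-fold to 3.47-fold lower. Both HFS libraries lay below both C libraries in each of them (all genes 32.5%). They were picked by p in these same libraries, which makes an overlap unlikely. Ndufa3 stood apart within the group, at 49.1 and 38.1 in C and 48.6 and 39.9 in HFS, with a ratio of 1.02 and overlapping libraries.

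The 7 complex I assembly factors, which build the complex and are not part of it, gave 1 call, lower (14.3%, all genes 9.7%). Ndufaf3 was at 62.1 and 80.2 in C and at 42.4 and 3.63 in HFS, and the last of these values was a single read. It was 3.09-fold lower (limma-trend adjusted p = 0.044), but did not pass with limma-voom on the recovered reads (adjusted p = 0.11). Ndufaf7 was at 81.5 and 84.7 against 41.8 and 36.3 (ratio 0.469, limma-trend adjusted p = 0.072). Ndufaf4 was at 76.0 and 146 against 133 and 109, with a ratio of 1.09 and overlapping libraries.

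None of the 4 genes of complex II, succinate dehydrogenase, passed the test (all genes 9.7% lower). Both HFS libraries lay below both C libraries for all 4 (all genes 32.5%). Sdhb, the iron-sulfur subunit, was at 354 and 295 in C and 230.1 and 87.0 in HFS, a ratio of 0.489 (log2 difference -0.89 ± 0.30 SE, limma-trend adjusted p = 0.056). Sdha, the flavoprotein, had a ratio of 0.697, and the membrane anchors Sdhc and Sdhd had ratios of 0.668 and 0.740. Their adjusted p values lay between 0.24 and 0.34 with limma-trend.

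In complex III, 2 of 7 genes were lower (all genes 9.7%). Uqcr10, a small subunit, was at 565 and 506 in C and 261 and 185 in HFS, 2.40-fold lower (limma-trend adjusted p = 0.012). Uqcrb, which lies beside a ubiquinone site, was at 258 and 378 against 183 and 72.5, 2.48-fold lower (adjusted p = 0.026). Uqcrh was at 716 and 1309 against 654 and 352 (ratio 0.496, adjusted p = 0.076). The Rieske iron-sulfur protein gene Uqcrfs1 had a ratio of 0.635, and the cytochrome c1 gene Cyc1 one of 0.829, neither past the test. The core protein gene Uqcrc1 overlapped between the diets, at 647 and 438 against 555 and 457.

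Cycs, the gene of cytochrome c, was the only gene of the set with both HFS libraries above both C libraries in precursors. It was at 160.3 and 153 normalized counts in C and 206 and 189 in HFS. The ratio of 1.26 did not pass the test (log2 difference 0.25 ± 0.23 SE, limma-trend adjusted p = 0.49).

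Of the 12 complex IV genes, 1 (8.33%, all genes 9.7%) was lower by the test, the alternative subunit Cox4i2. The other 11 had ratios from 0.441 to 0.904 and adjusted p from 0.060 to 0.79 (limma-trend). Both HFS libraries lay below both C libraries in each of the 11 (all genes 32.5%). Cox7b was at 337 and 161 in C and 122 and 97.9 in HFS (ratio 0.441). Cox5a was at 635 and 1008 against 532 and 334 (ratio 0.527), and Cox5b, which binds zinc, at 479 and 521 against 403 and 156 (ratio 0.559). Cox6b1 had a ratio of 0.484, Cox6a1 of 0.605, Cox7a2 of 0.716 and Cox7a2l, which links complexes III and IV in supercomplexes, of 0.839. Cox4i1 had the ratio nearest to 1 in this complex, at 2148 and 1936 against 1774 and 1918 (ratio 0.904, log2 difference -0.14 ± 0.31 SE).

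The ATP synthase gave 7 lower genes of 16 (all genes 9.7%). Atp5mf, a membrane subunit, was at 824 and 905 in C and 399 and 254 in HFS, 2.65-fold lower (log2 difference -1.27 ± 0.28 SE, limma-trend adjusted p = 0.0074). Atp5po, the stalk subunit that confers oligomycin sensitivity, was at 856 and 1469 against 539 and 178, 3.24-fold lower (adjusted p = 0.011). Atp5pd, of the peripheral stalk, was at 1383 and 1573 against 782 and 468, 2.37-fold lower (adjusted p = 0.016). Atp5mk was at 314 and 390.0 against 182 and 163, and Atp5me, Atp5pf and Atp5mc2 were the other three called. The alpha and beta subunits of the F1 head, of which beta is the catalytic one, were not among them: Atp5f1a had a ratio of 0.613 and Atp5f1b one of 0.751 (adjusted p = 0.12 and 0.41). Atp5if1, the inhibitor of ATP hydrolysis, was at 747 and 744 against 680.3 and 580.2 (ratio 0.846).

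The c-ring of the ATP synthase is made of 1 protein encoded by 3 genes. Atp5mc2 was at 291 and 159.6 in HFS, below both C libraries, and 2.10-fold lower (limma-trend adjusted p = 0.048). Atp5mc3 was at 1203 and 1210.5 against 852 and 779.7 (ratio 0.676, adjusted p = 0.20). Atp5mc1 had 1 and 21 reads in C and 0 in both HFS libraries, and no fold is given. Atp5mc3 made up 67.4% and 76.3% of the reads of the 3 genes in ASC_C and 74.5% and 83.0% in ASC_HFS, ranges that overlap.

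**Figure D2:**
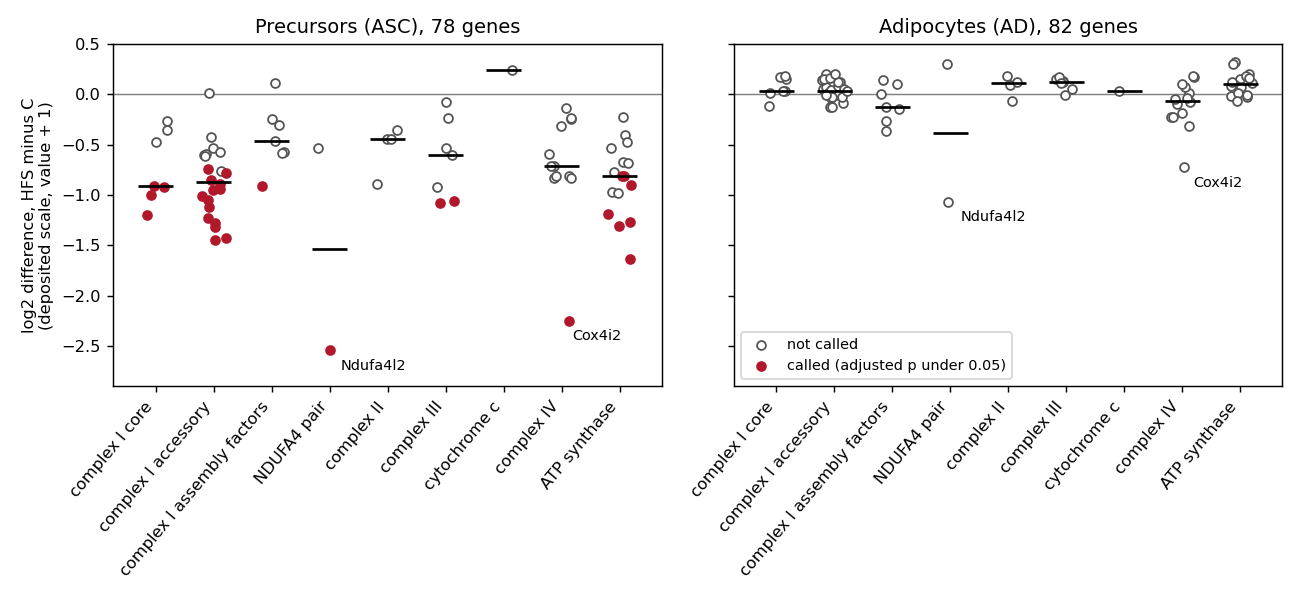
Log2 difference, HFS minus C, of each gene by complex in precursors (left) and adipocytes (right), on the deposited scale, with red points for genes called at an adjusted p under 0.05 and a black bar at each median. In precursors 75 of 78 points lie below 0 and 30 are red, and in adipocytes the medians lie between -0.38 and 0.12 and no point is red.

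Called genes made up 57.1% of the complex I core, 63.6% of its accessory subunits and 43.8% of the ATP synthase (all genes 9.7%). They made up 28.6% of complex III, 8.33% of complex IV, below the share of all genes, and none of complex II. The median log2 differences of these groups in precursors were -0.91, -0.87, -0.81, -0.60, -0.71 and -0.45 in that order. These are descriptions, and no test of a difference between complexes was made. The read shares were lower in both HFS libraries than in both C libraries for each of these groups. Complex I accessory subunits took 0.221 ± 0.0195% in ASC_C and 0.0840 ± 0.0225% in ASC_HFS, and the ATP synthase took 0.506 ± 0.0298% and 0.255 ± 0.0539%. Complex IV took 0.253 ± 0.0103% and 0.147 ± 0.0254%, complex III 0.124 ± 0.00552% and 0.0665 ± 0.0135%, and complex II 0.0461 ± 0.00691% and 0.0263 ± 0.00508% (SD, n = 2).

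**Figure D3:**
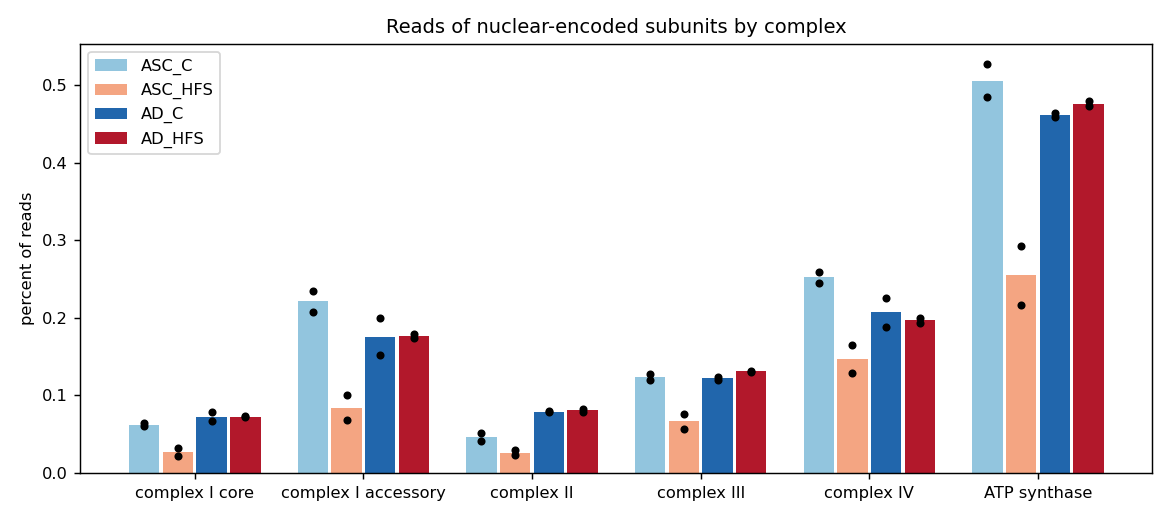
Percent of reads taken by the genes of each complex (bars, mean of 2 libraries; points, the libraries) in the 4 groups, over genes listed in both tables. ASC_HFS bars stand below ASC_C bars in all 6 groups shown, and the AD_C and AD_HFS bars stand close together.

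The alternative subunits Cox4i2 and Ndufa4l2 had the largest differences of the set in precursors. Cox4i2 (ENSRNOG00000007827) was at 236 and 242 normalized counts in C and at 8.73 and 18.1 in HFS, from 255 and 540 reads and from 14 and 5 reads. It was 17.8-fold lower (log2 difference -2.25 ± 0.22 SE on the compressed deposited scale, limma-trend adjusted p = 4.8e-05). Ndufa4l2 (ENSRNOG00000031851) was at 606 and 366 in C and 43.7 and 29.0 in HFS, 13.4-fold lower (log2 difference -2.54 ± 0.26 SE, adjusted p = 6.2e-05). Among all 14295 genes they had the 41st and 21st lowest log2 differences. Their usual counterparts Cox4i1 and Ndufa4 had ratios of 0.904 and 0.547 and did not pass, and Ndufa4 overlapped between the diets, at 359 and 125 against 123 and 141. In fits that left out 1 library, where 1 group has a single library and the other alone gives the spread, the log2 differences were -2.40 to -2.10 for Cox4i2 and -2.85 to -2.22 for Ndufa4l2. Neither passed limma-trend there (adjusted p from 0.063 to 0.29), nor did any other gene called lower in all 4 libraries.

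The share of each pair taken by the alternative form was read from the same libraries. Cox4i2 gave 9.91% (95% Wilson interval 8.81 to 11.1) and 11.1% of the joint reads of Cox4i1 and Cox4i2 in the ASC_C libraries. In ASC_HFS it gave 0.490% (0.292 to 0.820) and 0.936% (0.401 to 2.17). In adipocytes the share was 3.23% (3.06 to 3.42) and 2.40% (2.30 to 2.52) in C and 1.62% (1.53 to 1.72) and 1.73% (1.61 to 1.86) in HFS. Ndufa4l2 gave 62.8% and 74.5% of the joint reads of Ndufa4 and Ndufa4l2 in ASC_C and 26.1% and 17.0% in ASC_HFS. In adipocytes its share was 64.2% and 67.9% in C and 43.7% and 42.0% in HFS. HFS libraries lay below C libraries at both stages for both pairs. The shares are of reads and are not scaled to gene length, and the intervals cover counting error only.

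**Figure D4:**
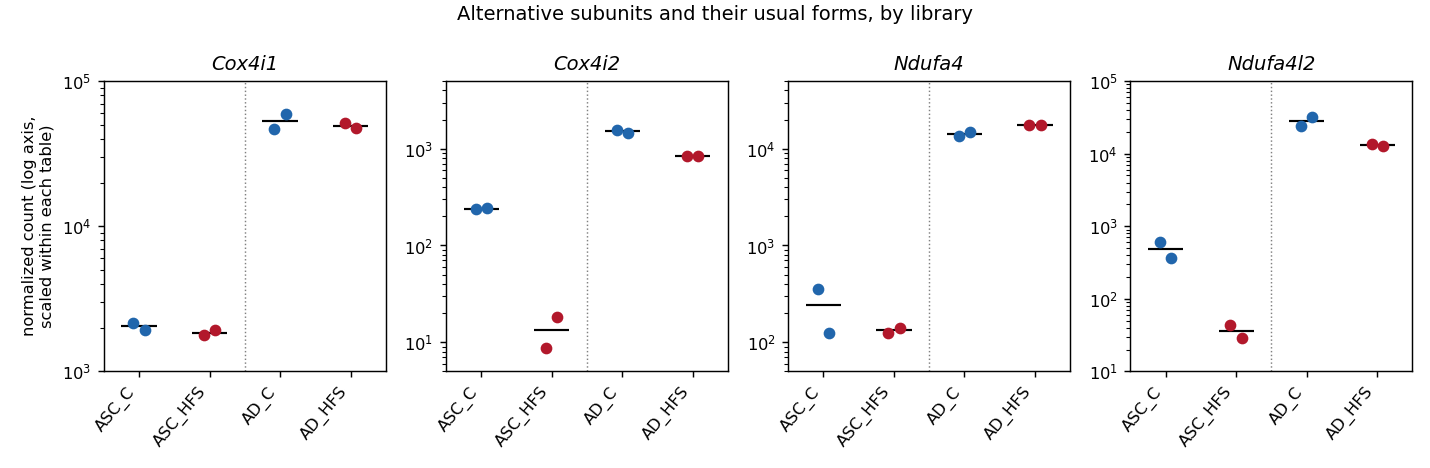
Normalized counts (log axis, scaled within each table) of Cox4i1, Cox4i2, Ndufa4 and Ndufa4l2 in each library, with a bar at the mean of each group. Cox4i2 and Ndufa4l2 are lower in both HFS libraries than in both C libraries at both stages, and levels left and right of the dotted line are on separate scales.

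The second comparison asked the same of adipocytes differentiated from the precursors. Of the 82 genes, 0 were called lower and 0 higher in AD_HFS (limma-trend), where 0.0329% of all 18236 genes were called lower and 1.31% higher. Limma-voom on the recovered reads also called 0 of them (all genes 0.0165% lower and 0.806% higher). At an unadjusted p under 0.05 there were 4 genes by limma-trend (all genes 13.9%) and 3 by limma-voom. The median log2 difference was 0.04 in the set and -0.01 over all genes. Both HFS libraries lay below both C libraries for 7 genes (all genes 23.5%) and above them for 19 (all genes 24.2%), and 56 overlapped. The set took 1.12% and 1.24% of reads in the AD_C libraries and 1.19% and 1.17% in the AD_HFS libraries.

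The 4 genes with an unadjusted p under 0.05 in adipocytes were Ndufa4l2, Cox4i2, Ndufa4 and Cox7a2l. Ndufa4l2 was at 24197 and 31788 normalized counts in AD_C and 13638 and 12672 in AD_HFS, a ratio of 0.470 (log2 difference -1.06 ± 0.16 SE, limma-trend adjusted p = 0.064). With the replicate numbers as a block its limma-trend adjusted p was 0.00772, and that of Cox4i2 was 0.067. Same-numbered adipocyte libraries deviated with a correlation of 0.0014, so the numbers do not show a pairing that would justify this block. Cox4i2 was at 1565 and 1464 in AD_C and 843 and 835 in AD_HFS, a ratio of 0.554 (log2 difference -0.72 ± 0.11 SE, limma-trend adjusted p = 0.069). Ndufa4 was at 13499 and 15022 against 17595 and 17518, a ratio of 1.23 (adjusted p = 0.30), and Cox7a2l at 14348 and 14237 against 12078 and 12305, a ratio of 0.853 (adjusted p = 0.35). None of these 4 overlapped between the diets (all genes 47.7% without overlap), but they were picked by p in these same libraries, which makes an overlap unlikely. Over all 18236 genes, Ndufa4l2 and Cox4i2 had the 32nd and 124th lowest log2 differences.

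Over the 82 genes the adipocyte ratios ran from 0.470 (Ndufa4l2) to 1.25 (Atp5mc3). The complex I core had ratios from 0.919 (Ndufv1) to 1.13 (Ndufs3), and Ndufs3 was at 6109 and 6502 in C and 7046 and 7244 in HFS. The 24 accessory subunits ranged from 0.896 (Ndufa6) to 1.18 (Ndufa3). Ndufa3 was at 1222 and 1141 in C and 1381 and 1403 in HFS (log2 difference 0.21 ± 0.11 SE, limma-trend adjusted p = 0.49), while Ndufa2 and Ndufa11 had ratios of 1.02. The assembly factors ranged from 0.746 (Ndufaf4, at 3315 and 2102 against 1863 and 2175) to 1.11 (Ndufaf7).

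In complex II the ratios lay between 0.952 (Sdha) and 1.14 (Sdhb), and in complex III between 0.997 (Uqcrb) and 1.13 (Uqcrfs1). Both HFS libraries lay above both C libraries for 5 of the 7 complex III genes (all genes 24.2%). Uqcrfs1, for example, was at 20574 and 22845 in C and 24262 and 24638 in HFS (log2 difference 0.17 ± 0.10 SE, limma-trend adjusted p = 0.54). Cycs was at 4799.9 and 6287 against 5393 and 5903, with overlapping libraries and a ratio of 1.02.

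In complex IV the lowest ratios were those of Cox4i2 (0.554) and Cox6a2 (0.613). Cox5a and Cox6c had the highest, both 1.13, and both separated the diets. Cox6a2 and Cox7a1, the forms known from heart and muscle and listed in adipocytes alone, gave few reads. Cox6a2 was at 108 and 213 in C and 88.8 and 108 in HFS, and Cox7a1 at 39.2 and 59.3 against 38.3 and 52.6. Cox6a2 gave between 0.286% and 0.633% of the joint reads with Cox6a1, and Cox7a1 between 3.85% and 5.79% of those with Cox7a2. In the ATP synthase, Atp5mc3 had the highest ratio, 1.25, at 29539.9 and 24152 against 34018 and 33048 (adjusted p = 0.38). The lowest was 0.952, for Atp5pd.

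The diet differences of the 2 stages were then compared directly in the 14018 genes of both tables (limma-voom on the recovered reads of all 8 libraries). The difference of differences, AD minus ASC, was above 0 past the test for 8 of the 78 genes and below 0 for none. Over all genes, 4.2% were called in that direction and 5.11% in the other, and at an unadjusted p under 0.05 there were 27 of the 78 genes (all genes 29.9%). The 8 genes were Cox4i2, Ndufs3, Atp5mf, Ndufa8, Ndufa2, Uqcr10, Ndufa4l2 and Ndufs8. Cox4i2 had ratios of 0.0562 in precursors and 0.554 in adipocytes, a difference of 3.45 on the log2 scale (adjusted p = 0.011, limma-voom). Ndufs3 had ratios of 0.339 and 1.13, a difference of 1.51 (adjusted p = 0.024), and Ndufa2 of 0.288 and 1.02, a difference of 1.59 (adjusted p = 0.033). Without ASC_HFS replicate 1 the count was 0 (all genes 0.0143%), without AD_C replicate 2 it was 25 (all genes 11%), and with the replicate block it was 2 (all genes 2.23%). Most of the other fits with 1 library left out also gave a count below 8. Each stage was cultured and sequenced to a different depth, and depth and stage cannot be told apart in this contrast.

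Of the 78 genes, 51 had a log2 difference below 0 in precursors and above 0 in adipocytes, 24 lay below 0 at both stages, 2 lay above 0 at both, and 1 lay above 0 in precursors only. Both HFS libraries lay below both C libraries at both stages for 5 genes (6.98% of the genes in both tables). Across the 78 genes, which share the same libraries, Pearson's r between the stages was 0.30 and Spearman's rho -0.14. Without Cox4i2 and Ndufa4l2 they were -0.28 and -0.23, so the positive r rests on those 2 genes.

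**Figure D5:**
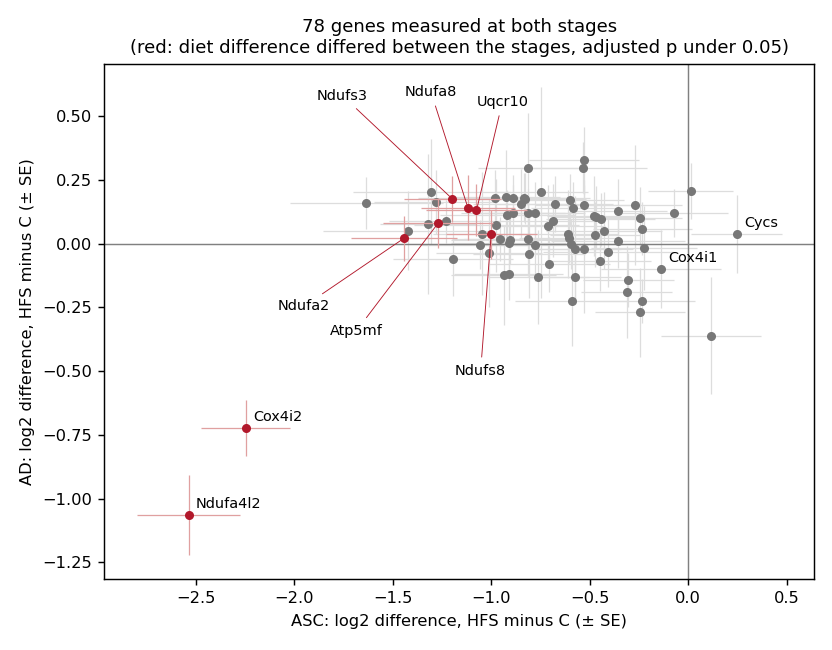
Log2 difference, HFS minus C, in precursors (x axis) and adipocytes (y axis) for the 78 genes of both tables, with SE bars, and red for the 8 genes whose diet difference differed between the stages. Cox4i2 and Ndufa4l2 lie far below 0 on both axes, and the other red points lie below 0 in precursors and near or above 0 in adipocytes.

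Genes that work with the chain but fall outside the symbol rule were read from 6 lists. The 13 mitochondrially encoded subunits gave 0 calls in precursors (all genes 9.7% lower and 9.41% higher) and a median log2 difference of 0.01. At an unadjusted p under 0.05 there were 2 of the 13 (limma-trend, all genes 33.3%). They took 1.34% and 0.533% of reads in ASC_C and 0.620% and 0.821% in ASC_HFS, so the C libraries lay on both sides of the HFS libraries. In adipocytes they took 6.11% and 6.54% in C and 5.76% and 6.00% in HFS. Again 0 were called (all genes 0.0329% lower and 1.31% higher).

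Assembly factors of complexes I to V outside the rule had, in precursors, 12 lower and 0 higher of 38 measured (all genes 9.7% and 9.41%) and a median log2 difference of -0.54. Timmdc1, a membrane-arm assembly factor of complex I, was at 168 and 157 normalized counts in C and 56.1 and 54.4 in HFS, 2.94-fold lower (limma-trend adjusted p = 0.0083). Uqcc2, of complex III assembly, was at 116 and 273 against 66.1 and 14.5, and Higd1a, a complex IV associated protein known to be induced by hypoxia, at 662 and 616 against 324 and 221. Tmem126b, of complex I assembly, was at 63.9 and 46.6 against 11.2 and 14.5, 4.30-fold lower (adjusted p = 0.016).

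Among 13 genes of the tricarboxylic acid cycle, 1 was lower, a count near the 9.7% of all genes, and the median log2 difference was -0.38. That gene was Dlst (2.17-fold, adjusted p = 0.023, limma-trend). Among 17 other donors to ubiquinone and ubiquinone synthesis genes, 3 were lower and 1 higher (all genes 9.7% and 9.41%), the latter below the share of all genes. Sqor, the sulfide oxidoreductase, was at 282 and 214 in C and 68.6 and 18.1 in HFS, 5.72-fold lower (adjusted p = 0.0014), Coq3 and Dhodh were the other lower genes, and Gpd2, a mitochondrial glycerol phosphate dehydrogenase, was 2.62-fold higher (adjusted p = 0.0499). Among 23 import, carrier and cristae genes 5 were lower, Micos13, Samm50, Timm44, Chchd3 and Apool, and 0 were higher (all genes 9.7% and 9.41%).

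Among 19 regulators of mitochondrial gene expression, 1 was higher and 1 lower in precursors, both below the shares of all genes (9.41% and 9.7%). Pprc1, a coactivator related to PGC-1, was at 144 and 148 in C and 291 and 369.9 in HFS, 2.27-fold higher (limma-trend adjusted p = 0.019). Slirp, which stabilizes mitochondrial mRNA, was at 157 and 107 against 73.6 and 25.4, 2.67-fold lower (adjusted p = 0.032). Nrf1, whose protein binds the letters marked in the promoters above, was at 113 and 81.1 against 117 and 210.3, and Gabpa at 78.7 and 95.5 against 89.2 and 141, neither past the test. In adipocytes, 0 genes were called in each of the 6 lists by limma-trend (all genes 0.0329% lower and 1.31% higher). Between 0 and 3 genes a list had an unadjusted p under 0.05 (all genes 13.9%).

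Markers of other cells moved with diet in the same libraries. Over all genes in precursors, 9.41% were called higher and 9.7% lower. There 11 of 13 macrophage markers were higher in HFS, with a summed share of 0.109% and 0.114% of reads in C and 0.322% and 0.346% in HFS. All 7 endothelial markers measured were higher (0.0198% and 0.0406% against 0.0980% and 0.0994%), as were all 5 epithelial markers (0.00300% and 0.00400% against 0.0142% and 0.0141%) and 2 of 3 red blood cell markers. Of 7 progenitor markers, Pi16, Cd34 and Dpp4 were higher and Pdgfra and Thy1 lower. Adipocyte markers gave 3 higher of 8, with overlapping summed shares, and skeletal muscle markers 0 of 4. Smooth muscle and pericyte markers gave 1 higher and 2 lower of 6. The summed share of this last list was lower in HFS, at 0.0706% and 0.0560% of reads in C and 0.0361% and 0.0299% in HFS. In adipocytes 8 of 13 macrophage markers were higher (all genes 1.31%), at 0.0421% and 0.0802% of reads in C and 0.378% and 0.378% in HFS. There 0 markers of the other lists were called. No macrophage, endothelial or epithelial marker measured was at 0 reads in any library, while 1 of 3 red blood cell markers was at 0 in both ASC_C libraries and up to 2 of 4 skeletal muscle markers were at 0 in an ASC library. Their part in the differences above was not tested.

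Replicates of a group also differed across the set. In ASC_HFS, 10 of 78 genes were higher in replicate 2 than in replicate 1, with a median log2 difference between the libraries of -0.31 (all genes -0.02). In AD_C, 65 of 82 genes were higher in replicate 2 than in replicate 1, with a median of 0.18 (all genes 0.01). In ASC_C the set split evenly, 39 of 78. Without 1 ASC library, where limma-trend called 0 of the 78 genes, 73 to 76 differences stayed below 0. Both HFS libraries lay below both C libraries for 67 of the 78 genes, so those signs could not change in these fits. The 30 genes called in all 4 libraries are all among the 67, and so kept a difference below 0. With limma-voom the count was 33 without ASC_C replicate 1 (all genes 11.6%) and 33 without ASC_C replicate 2 (all genes 13.9%). It was 15 without ASC_HFS replicate 1 (all genes 1.96%) and 8 without ASC_HFS replicate 2 (all genes 4.16%). Limma-voom on all 4 libraries called 32 (all genes 10.3% lower and 12.1% higher), of which 28 were among the 30.

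Without AD_C replicate 1, limma-trend called 29 genes of the set lower and 9 higher in adipocytes, where 18.3% of all genes were called lower and 20.7% higher. Without AD_C replicate 2 it called 6 lower and 46 higher, where 26.4% and 27.5% of all genes were called. In those fits the spread comes from the AD_HFS pair alone, which differed the least of the 4 pairs. Of the 82 genes, 45 changed sign in at least 1 of the 4 fits. Without either AD_HFS library no gene of the set was called. The log2 differences of Cox4i2 and Ndufa4l2 ran from -0.77 to -0.68 and from -1.26 to -0.87 over the 4 fits. Both HFS libraries lay below both C libraries for these 2 genes, so their sign could not change.

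A few genes of the set were counted with few reads in adipocytes too. Atp5mc1 had 36 to 116 reads in the AD libraries, against 10870 to 17699 for Atp5mf, and Ndufs6 had 14 to 26. Many genes of the chain have processed pseudogenes or near-identical copies, among them Cox7a2l2 and Ndufa10l1 in the set itself. How reads shared between copies were counted is not given in the sources used here, so the levels of such genes are uncertain.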

How the data were processed

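RNA of 8 rat libraries was read as 50 bp pairs. The labels name polyA RNA and also an rRNA depletion kit. FastQC, STAR, featureCounts, DESeq2 and the builds mRatBN7.2 and rn7 are named per the submitters' processing notes, without versions. The authors deposited 1 signal value per gene and library, in separate tables for precursors and adipocytes. In both, the deposited values are a variance-stabilised transform on a linear scale: with the table's lowest value as offset, each gave a normalized count that was a whole number of reads (100% of values, tolerance 1e-06). The lowest values were 34.7 and 107, so log2 differences understate the change of low genes. Ratios here are of means of normalized counts.

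HFS was compared with C within each table with limma's trend method on log2(value + 1) (package version 3.58.1 under R 4.3.3), two-sided, with Benjamini-Hochberg adjustment over all genes, a threshold of 0.05 and a filter on a mean value of at least 10, which lies below the lowest deposited value and so could remove no gene. The count test on recovered reads was limma-voom, which was also used for the diet-by-stage contrast. Both were tested on simulated data. Tables, figures and promoter searches used Python 3.11.15, pandas 2.3.3 and matplotlib 3.10.9. Rows without a symbol (1916 and 3945) stayed in the fits.

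Genes named with values were drawn from the 4 with the smallest p in each complex, all genes of groups of up to 4, the gene of most opposite sign, and the isoform sets. Not all of these are given with values: Ndufaf1 and Ndufaf6 in precursors and several genes in adipocytes are left out. For other lists up to 4 of the smallest p were named, and the remaining genes named with values (Ndufs1, Ndufs7, Cyc1, Atp5f1a and Atp5f1b in precursors, Ndufa2, Ndufa11 and Atp5mf in adipocytes, Nrf1 and Gabpa) were added after their values were seen. The members and lists were chosen with earlier results of these data known. Values of 1 gene of the set are not reported here, though it stays in the counts and fits.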

Additional observations from a re-analysis of the deposited data

Results flagged for a closer look

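The diet difference of 8 genes differed between precursors and adipocytes by the test of that difference itself (limma-voom on recovered reads of all 8 libraries, AD minus ASC, adjusted p under 0.05 over 14018 genes). For Cox4i2 the difference of log2 differences was 3.45 ± 0.47 SE (adjusted p = 0.011, limma-voom), and for Ndufa4l2 it was 2.33 ± 0.55 (adjusted p = 0.038). Cox4i2 was called lower in precursors (ratio 0.0562) and not in adipocytes (0.554), and so was Ndufa4l2 (0.0747 and 0.470). For Ndufs3, Ndufs8, Ndufa8 and Ndufa2 of complex I it was 1.51, 1.29, 1.51 and 1.59. For Uqcr10 of complex III it was 1.17 and for Atp5mf of the ATP synthase 1.25. The count of 8 was not stable. With the replicate block it was 2 (all genes 2.23%), and in most fits with 1 library left out it was lower. With 2 libraries a group, no group was large enough for a test of outlying libraries.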

How the results depend on the processing

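In precursors the median difference stayed below 0 under each alternative run, and was -1.01 on log2 normalized counts. The count of lower genes was 30, and 11 with limma-voom on reads thinned to the shallowest library; leaving out 1 library gave 0 with limma-trend (medians -0.90 to -0.51) and, with limma-voom, 8 and 15 without an ASC_HFS library and 33 without an ASC_C library (medians -1.24 to -0.69). In adipocytes leaving out 1 library gave 0 to 29 lower and 0 to 46 higher genes with limma-trend (medians -0.0555 to 0.17) and 0 to 29 and 0 to 44 with limma-voom (medians -0.06 to 0.18). Without AD_C replicate 1 there were 29 lower and 9 higher genes, or 10 higher with limma-voom, and without AD_C replicate 2 there were 6 lower and 46 higher, or 44. The diet-by-stage count of 8 was 14 with limma-trend, 13 with upper-quartile scaling and 0 to 25 with 1 library left out. With the replicate block the counts of lower genes were 36 in precursors and 1 in adipocytes. The diet-by-stage count with this block was 2 (all genes 2.23%). Same-numbered libraries deviated with a correlation of -0.12 in precursors and 0.0014 in adipocytes, so the numbers do not show a pairing; the crossed pairing, chosen after seeing the data, gave 43 and 1. The cause of these shifts was not tested. No share over all genes is given for the block and crossed counts within a stage, or for the diet-by-stage counts of 14 and 13. For those runs a shift of the set cannot be told from one of all genes. Signs reversed with 1 AD_C library left out: over these fits the log2 difference in adipocytes ran from -0.24 to 0.20 for Atp5if1, from -0.27 to 0.19 for Cox7b, from -0.13 to 0.27 for Cox6b1 and from -0.15 to 0.22 for Cycs. The depth of ASC_HFS replicate 2 limits genes of few reads.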
